A study of Mus musculus with 57 samples.

Results

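The actin cytoskeleton and motility machinery is described here as a list of 43 genes, found by symbol in the first column of both deposited count tables. One table lists 50565 genes and comes from male and female animals (the sex experiment). The other lists 53278 genes and comes from animals of the lipopolysaccharide experiment (the LPS experiment). All 43 genes were present in both tables, and all 43 passed the filter on low counts in both. They were read in CD11b-positive cells of the brain, annotated as microglia, from adult wild-type (WT) mice and littermates deficient in P2RY12 (KO), a nucleotide receptor of resting microglia.

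The sex experiment had 9 males (4 WT and 5 KO) and 9 females (4 WT and 5 KO). The LPS experiment had WT and KO animals annotated either LPS, a bacterial cell-wall component injected into the peritoneum at 1 mg/kg, or ns, an abbreviation that the annotations do not define. All libraries were of polyadenylated RNA. The allele and cells in which P2RY12 was lost, the strain, the exact age, the time after injection and, for the LPS experiment, the sex were not given in the sources used here. The names of the LPS libraries carry a first number, from 1 to 8, and a second, called the library number here. Each first number holds 1 group. Numbers 1 to 4 were taken here as set 1 and 5 to 8 as set 2, with every group in each. The annotations do not state these sets. The 4 WT libraries of number 2 are shown apart, because 2 genes outside the list went against their annotation. P2ry12 was 481 CPM (counts per 1000000 counts of the library) in the library labelled WT ns 1 and 926 CPM in that labelled WT ns 5, and 4457 CPM and 12129 CPM in those labelled WT LPS 1 and WT LPS 6. In the other WT libraries P2ry12 was 3511 to 5402 CPM under ns and 400 to 1062 CPM under LPS. Saa3, an acute-phase gene induced by LPS, was 1780 and 2488 CPM in the number 2 libraries labelled ns, against 1.59 and 3.20 CPM in the pair labelled LPS. Among the other WT libraries Saa3 was 1416 to 9714 CPM under LPS. Under ns it was 64.3 CPM in WT ns 8, which was kept in the tests, and 1.52 to 4.16 CPM in the rest. The libraries WT LPS 8 and WT LPS 9 were nearly identical and were summed, so that 6 WT ns, 6 WT LPS, 8 KO ns and 8 KO LPS samples were tested. Nothing in the annotations says how many animals stand behind each library of that experiment, so p-values there measure the spread between libraries, which may in part be technical.

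Microglia extend and retract processes by assembling actin filaments. The Arp2/3 complex nucleates branched filaments when WASP-family proteins activate it downstream of Cdc42 and Rac, formins and Ena/VASP proteins elongate filaments, cofilin and gelsolin sever them, and talin, kindlin and vinculin couple them to integrins. P2RY12 is known as the receptor that directs microglial processes toward nucleotides released at sites of injury.

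Promoters are shown for 5 genes, 250 bases before to 50 bases after a start in RefSeq on the build GRCm38.p6. Of these, Vcl, Elmo1, Cfl1 and Capg were called between LPS and ns below, while Actg1 was not called in any comparison. Capitals mark a match to one of the motifs searched, and genes without capitals held neither. Entries were found for 39 of the 43 genes, and Actb, Diaph1, Pxn and Rac1 were the others. The motifs were the CArG box bound by serum response factor, which is known to drive many actin genes, and the kappaB site bound by NF-kappaB, known from responses to LPS. Both strands were searched, the 2 motifs were counted separately, and the kappaB search was added after the LPS results were seen. The CArG box lay 90 bases before the start of Actg1, a cytoplasmic actin, and 227 bases before that of Vcl, encoding vinculin. The kappaB site lay 28 bases before 1 of the 2 starts listed for Elmo1, whose product joins DOCK proteins in activating Rac. Cfl1 encodes cofilin and Capg a protein that caps the barbed ends of filaments.
Actg1, chr11:120348446-120348745, minus strand: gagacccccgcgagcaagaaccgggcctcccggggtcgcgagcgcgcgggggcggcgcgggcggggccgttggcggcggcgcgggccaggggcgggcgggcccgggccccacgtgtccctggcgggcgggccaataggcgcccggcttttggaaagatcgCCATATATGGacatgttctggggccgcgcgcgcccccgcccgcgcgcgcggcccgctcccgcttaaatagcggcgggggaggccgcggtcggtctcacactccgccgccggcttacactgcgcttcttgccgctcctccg
Vcl, chr14:20929148-20929447, plus strand: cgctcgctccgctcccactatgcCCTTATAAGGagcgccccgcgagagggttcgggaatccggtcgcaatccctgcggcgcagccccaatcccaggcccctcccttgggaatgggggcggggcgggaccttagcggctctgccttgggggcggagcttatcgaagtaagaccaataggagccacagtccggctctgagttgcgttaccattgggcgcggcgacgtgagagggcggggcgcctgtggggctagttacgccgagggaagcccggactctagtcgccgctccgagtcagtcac
Elmo1, chr13:20472740-20473039, plus strand: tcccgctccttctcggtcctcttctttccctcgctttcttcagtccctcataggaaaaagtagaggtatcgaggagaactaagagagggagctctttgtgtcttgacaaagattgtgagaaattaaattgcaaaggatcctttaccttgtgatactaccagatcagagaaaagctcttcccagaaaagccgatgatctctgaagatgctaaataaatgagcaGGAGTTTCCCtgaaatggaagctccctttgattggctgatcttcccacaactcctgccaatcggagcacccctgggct
Cfl1, chr19:5490205-5490504, plus strand: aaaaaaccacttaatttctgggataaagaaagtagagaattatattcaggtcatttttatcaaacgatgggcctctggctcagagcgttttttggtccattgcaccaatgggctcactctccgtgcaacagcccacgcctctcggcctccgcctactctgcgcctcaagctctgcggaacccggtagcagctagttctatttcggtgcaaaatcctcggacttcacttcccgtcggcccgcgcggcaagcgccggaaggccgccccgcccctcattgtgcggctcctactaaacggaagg
Capg, chr6:72549397-72549696, plus strand: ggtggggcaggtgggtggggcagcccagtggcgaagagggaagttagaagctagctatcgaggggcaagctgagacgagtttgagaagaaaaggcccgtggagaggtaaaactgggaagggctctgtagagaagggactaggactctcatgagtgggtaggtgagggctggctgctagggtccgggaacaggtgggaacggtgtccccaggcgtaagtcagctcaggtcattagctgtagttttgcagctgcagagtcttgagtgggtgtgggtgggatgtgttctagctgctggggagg
The CArG box was found in 4 of the 39 genes (10.3%), namely Actg1, Arpc4, Vcl and Myl6, and in 1.81% of the 27025 genes that have a promoter entry. The kappaB site was found in 3 of the 39 (7.69%), namely Myl12a, Elmo1 and Vav3, and in 5.14% of all genes. A match describes these letters and does not show binding.

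Totals per animal of the sex experiment were 58.5 M to 318.5 M counts (1 M is 1000000), and those per LPS library 15.9 M to 168.4 M. Among low counts, from 1 to 20, the share of even numbers was 78.99% to 89.19% by animal of the sex experiment. By LPS library it was 39.7% to 45.55%. The reason was not tested, and the counts were tested without a correction for it. Totals and numbers of genes tested are therefore not compared between the experiments. Levels below are CPM scaled by TMM (a library-size correction), are not divided by gene length, and are compared between libraries only. In bulk RNA, fewer cells of a type and less RNA per cell cannot be told apart. The defining markers of microglia summed to 24081 to 39360 CPM by animal in the sex experiment and to 18576 to 52971 CPM by LPS library, with counts for every marker in the tables. P2ry12 was 3006 to 5927 CPM in WT and 309.2 to 526.2 CPM in KO animals of the sex experiment, and 585 to 1242 CPM under ns and 84.2 to 154.0 CPM under LPS in KO libraries of the LPS experiment. Differences are log2 fold changes with a standard error (SE), tested with edgeR's quasi-likelihood test, and a gene is called where its p, adjusted over all genes by the Benjamini-Hochberg method, is under 0.05.

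Between LPS and ns, the actin genes moved in both directions. In KO microglia 10 of the 43 were called (23.3%), 7 of them higher and 3 lower, while 28.5% of the 16088 genes tested were called, 14.4% higher and 14.1% lower. In WT microglia, without the libraries of number 2, 11 were called (25.6%), 5 higher and 6 lower, while 30.7% of all genes were called, 15.5% higher and 15.2% lower. The shares of actin genes called were thus near those of all genes. The median difference over the 43 genes was 0.05 in KO and 0.22 in WT, beside 0.01 and 0.03 over all genes. Single libraries moved these medians, to 0.15 in KO without KO ns 6, to -0.03 in KO without KO ns 7 and to 0.06 in WT without WT LPS 7, so the medians do not order the genotypes. The genes Cfl1 and Capg rose, and Elmo1, Evl and Tmsb10 fell, in both genotypes. These 5 make up 50% of the KO calls and 45.5% of the WT calls, below the 71.4% and 66.3% that shared calls make up over all genes. KO and WT were measured in separate libraries. DESeq2 called 12 in KO (32.5% of all genes) and 12 in WT (35.4%). With only the groups compared in the fit, edgeR called 6 in KO (23.9%) and 10 in WT (31.5%). Within set 1 alone, 22 actin genes were called in KO (45.3% of all genes) and 16 in WT (42.6%). Within set 2 alone, 2 were called in KO (4.36%) and 1 in WT (3.31%), and every gene called in either genotype over both sets had the same sign in each set. Without the 4 libraries of over 10000 CPM of neutrophil markers, described below, 15 genes were called in KO (37.3% of all genes) and 9 in WT (28.3%). This limit was chosen after the data were seen.

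Markers of cell types differed between LPS and ns as well. Of 10 microglial markers 6 fell in KO (median difference -0.54) and 7 in WT (-0.92), and their sum ran from 36031 to 52971 CPM in KO ns, from 23943 to 28785 CPM in KO LPS, from 24217 to 42468 CPM in WT ns and from 18576 to 27100 CPM in WT LPS. Of 10 neutrophil markers 1 rose in KO (median -0.40) and 3 fell in WT (-0.91), with sums under ns of 297 to 10099 CPM for KO and 332.5 to 18182 CPM for WT, and under LPS of 1015 to 4439 CPM for KO and 1709 to 13484 CPM for WT. Endothelial markers summed to 53.4 to 108.9 CPM under ns and 15.6 to 70.4 CPM under LPS over both genotypes, with 2 lower in KO, and 3 lower and 1 higher in WT. Lymphocyte markers summed to 17.4 to 68.8 CPM over all groups, with 3 lower in each genotype. The part of these cell types in the differences of the actin genes was not tested.

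**Figure D1:**
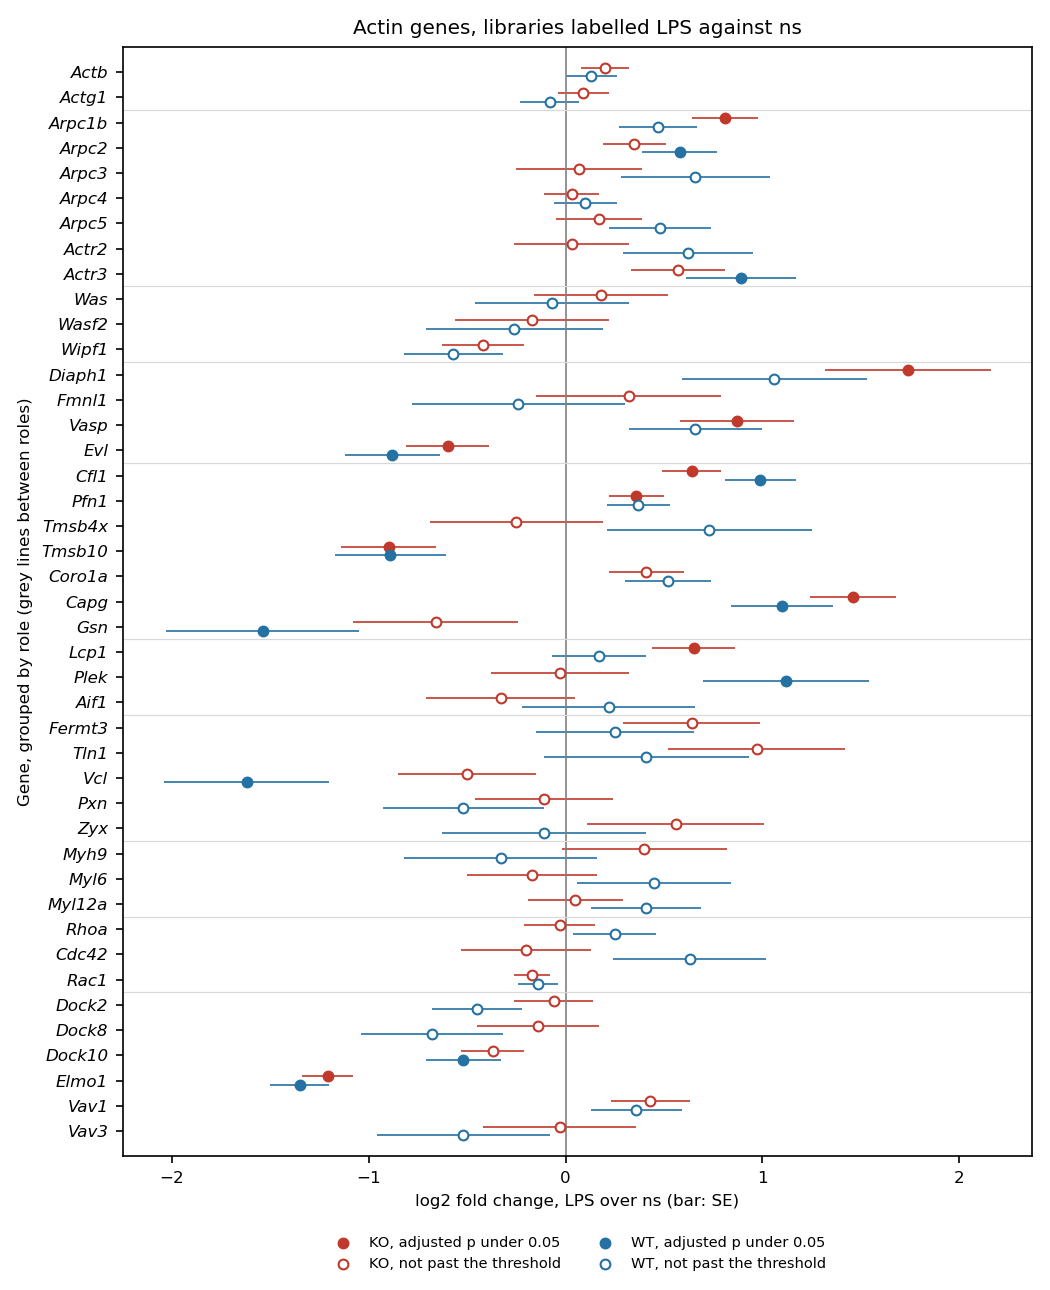
Log2 fold change of LPS over ns (horizontal axis, with SE bars) for each of the 43 actin genes (vertical axis, ordered by role), in KO (red) and WT (blue), with filled points where the adjusted p was under 0.05. Elmo1 lies at -1.21 in KO and -1.35 in WT, and Capg at 1.46 and 1.10.

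Elmo1 had the lowest adjusted p of the 43 genes in both genotypes. Its level ran from 273 to 599 CPM with a median of 537 CPM in KO ns, and from 196 to 238 CPM with a median of 214 CPM in KO LPS. In WT it ran from 451 to 585 CPM with a median of 543 CPM under ns, and from 122 to 237 CPM with a median of 214 CPM under LPS. The ns and LPS libraries did not overlap in either genotype. Elmo1 fell by 1.21 (SE 0.13, edgeR adjusted p = 7.76e-08) in KO and by 1.35 (SE 0.15, adjusted p = 1.88e-07) in WT. The call held in all 30 alternatives in KO and in 25 of 26 in WT, and within both library sets. In set 1 the difference was -1.29 in KO and -1.27 in WT, and in set 2 it was -1.12 and -1.45.

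Among the genes of filament turnover, Capg ran from 21.2 to 41.5 CPM (median 23.4 CPM) in KO ns and from 34.8 to 95.2 CPM (median 82.3 CPM) in KO LPS. In WT Capg ran from 26.5 to 70.0 CPM (median 38.8 CPM) under ns and from 70.7 to 117.6 CPM (median 93.3 CPM) under LPS. Only 1 KO LPS library, KO LPS 5, lay within the KO ns range, and the WT groups did not overlap. Capg rose by 1.46 (SE 0.22, edgeR adjusted p = 1.3e-05) in KO and by 1.10 (SE 0.26, adjusted p = 0.00175) in WT. Cfl1 ran from 568.2 to 979.4 CPM (median 609 CPM) in KO ns and from 875 to 1096 CPM (median 981 CPM) in KO LPS. In WT Cfl1 ran from 474 to 653 CPM (median 574 CPM) under ns and from 950 to 1742 CPM (median 964 CPM) under LPS. The WT groups did not overlap, and in KO only KO ns 6 reached the LPS range. Cfl1 rose by 0.64 (SE 0.15, edgeR adjusted p = 0.00221) in KO and by 0.99 (SE 0.18, adjusted p = 0.000132) in WT. In set 2 alone Cfl1 differed by 0.53 in KO and 1.18 in WT without a call (adjusted p = 0.459 and 0.11), while set 1 gave 0.76 in both and a call.

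Tmsb10, encoding a thymosin that binds actin monomers, ran from 38.9 to 87.7 CPM (median 57.4 CPM) in KO ns and from 22.4 to 42.8 CPM (median 28.8 CPM) in KO LPS. In WT it ran from 48.6 to 107.5 CPM (median 66.5 CPM) under ns and from 23.7 to 56.1 CPM (median 39.0 CPM) under LPS. The ranges overlapped in both genotypes. Within the WT ns range lay WT LPS 4, WT LPS 5 and WT LPS 7 (56.12, 54.61 and 52.87 CPM). Within the KO ns range lay KO LPS 3 and KO LPS 6 (42.76 and 38.95 CPM). Tmsb10 fell by 0.90 (SE 0.24, edgeR adjusted p = 0.00535) in KO and by 0.89 (SE 0.28, adjusted p = 0.0161) in WT, and neither set alone gave a call. Pfn1, encoding profilin, which hands monomers to growing filaments, had a median of 433 CPM in KO ns and 585 CPM in KO LPS. It rose by 0.36 in KO (SE 0.14, edgeR adjusted p = 0.0471), a call lost without any 1 of 15 of the 16 KO libraries. Gsn, encoding gelsolin, ran from 16.3 to 129.7 CPM (median 33.1 CPM) in WT ns and from 13.3 to 34.9 CPM (median 14.6 CPM) in WT LPS, and fell by 1.54 (SE 0.49, edgeR adjusted p = 0.0189). The highest WT ns values, 129.7 CPM in WT ns 3 and 120.8 CPM in WT ns 8, were in the libraries with the highest neutrophil markers of that experiment, and without either of the 2 the call was lost (adjusted p = 0.0623 and 0.106). Of the 7 genes of this role 4 were called in KO and 4 in WT, and the others, Tmsb4x and Coro1a in either genotype, Gsn in KO and Pfn1 in WT, were not.

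**Figure D2:**
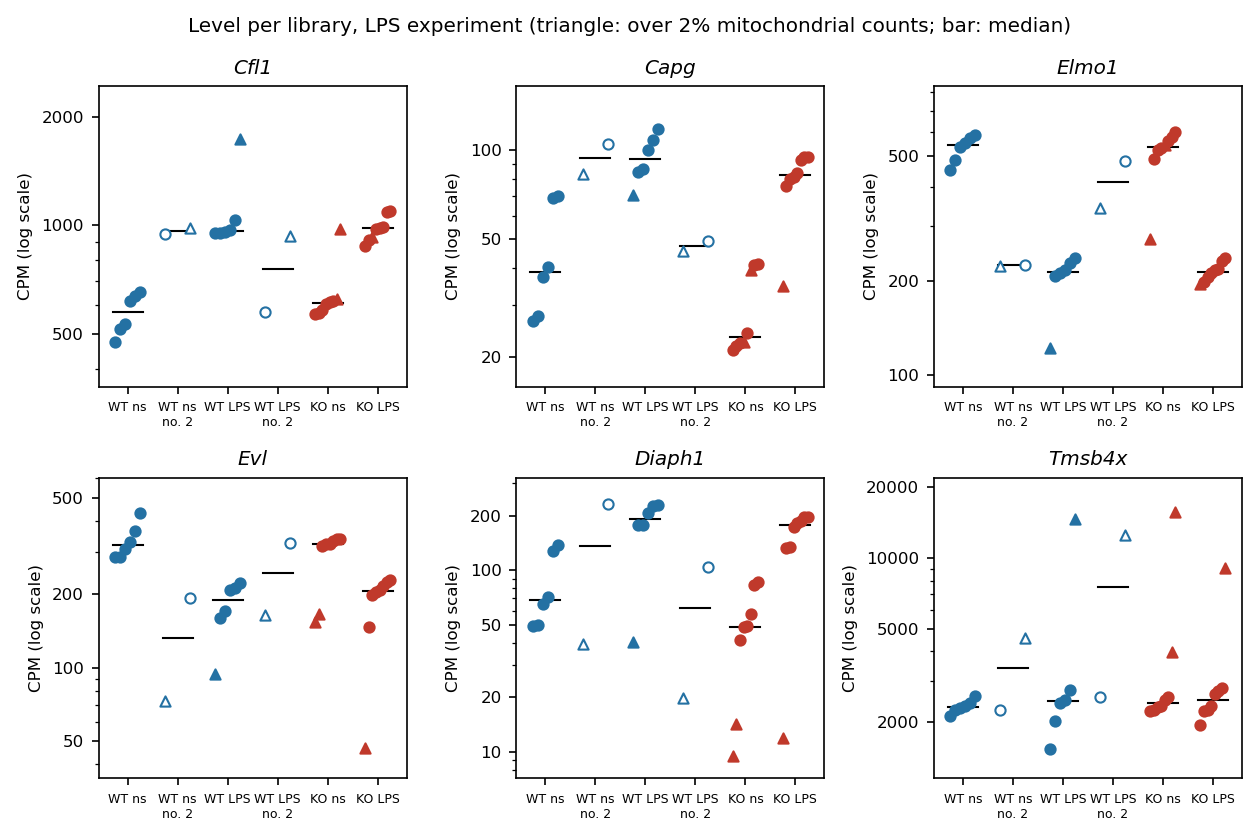
Level in CPM (vertical log axes) of 6 actin genes in every library of the LPS experiment, with WT libraries of number 2 as open symbols in columns of their own, triangles for libraries with over 2% mitochondrial counts and a bar at each median. Elmo1 separates ns from LPS in both genotypes, and Diaph1 and Tmsb4x stand apart in the triangles.

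In the Arp2/3 complex, which has 7 genes on the list, 1 gene was called in KO and 2 in WT, all higher. Arpc1b, a subunit typical of blood cells, ran from 137 to 334 CPM (median 286 CPM) in KO ns and from 170 to 513 CPM (median 485 CPM) in KO LPS. It rose by 0.81 there (SE 0.17, edgeR adjusted p = 0.000614). Only KO LPS 5 lay below the highest KO ns library. Arpc2, a structural subunit, ran from 332 to 421 CPM in WT ns and from 449 to 867 CPM in WT LPS, without overlap, and rose by 0.58 (SE 0.19, adjusted p = 0.0202). Actr3, the actin-related protein Arp3, ran from 243 to 460 CPM in WT ns and from 446 to 1271 CPM in WT LPS and rose by 0.89 (SE 0.28, adjusted p = 0.0151). The highest values of both, 867 and 1271 CPM, were in WT LPS 7, and without that library the differences were 0.39 for Arpc2 (adjusted p = 0.0889) and 0.58 for Actr3 (adjusted p = 0.0832). All 7 genes had a difference above 0 in both genotypes, from 0.03 to 0.81 in KO and from 0.10 to 0.89 in WT. In set 2 alone, Arpc3 (-0.16), Arpc4 (-0.04) and Actr2 (-0.02) were below 0 in KO. The other genes of the complex were above 0 there, as were all of them in WT. The 3 activators and partners Was, Wasf2 and Wipf1 were not called in either genotype.

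Of the 4 formins and elongation factors, 3 were called in KO and 1 in WT. Diaph1, a formin, ran from 9.55 to 86.2 CPM (median 48.8 CPM) in KO ns and from 12.0 to 195.4 CPM (median 177.3 CPM) in KO LPS. It rose by 1.74 (SE 0.42, edgeR adjusted p = 0.00225), and apart from KO LPS 5 at 12.0 CPM no KO LPS library was below 132.0 CPM. In WT the same gene differed by 1.06 (SE 0.47, adjusted p = 0.0902), with 40.3 CPM in WT LPS 7 and 176.4 to 227.8 CPM in the other WT LPS libraries. Vasp, which elongates filaments, ran from 41.5 to 309.1 CPM (median 228 CPM) in KO ns and from 53.7 to 505.0 CPM (median 396 CPM) in KO LPS. It rose by 0.87 in KO (SE 0.29, edgeR adjusted p = 0.0266). Without any 1 of 8 KO libraries the Vasp call was lost. Evl, a relative of Vasp, ran from 153 to 337 CPM in KO ns and from 46.8 to 230.0 CPM in KO LPS, and from 284 to 432 CPM in WT ns and from 94.6 to 221.8 CPM in WT LPS. It fell by 0.60 (SE 0.21, edgeR adjusted p = 0.0307) in KO and by 0.88 (SE 0.24, adjusted p = 0.00662) in WT. The KO call of Evl was lost without KO ns 3, KO ns 7, KO ns 8, KO LPS 1 or KO LPS 7 (adjusted p 0.0507 to 0.0759).

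Lcp1, encoding the leukocyte bundling protein plastin, ran from 573 to 1312 CPM (median 1026 CPM) in KO ns and from 869 to 2855 CPM (median 1334 CPM) in KO LPS, with a wide overlap. It rose by 0.65 in KO (SE 0.21, edgeR adjusted p = 0.0232). The lowest value was in KO ns 6 and the highest in KO LPS 5, and the call was lost without the former (0.52, adjusted p = 0.0574) and without the latter (0.41, adjusted p = 0.0669). Plek, encoding the platelet and leukocyte substrate pleckstrin, rose by 1.12 in WT (SE 0.42, edgeR adjusted p = 0.0416). WT LPS 7 held 4076 CPM of Plek, while the other WT LPS libraries held 477 to 674 CPM and WT ns 363 to 586 CPM. Without WT LPS 7 the difference was 0.33 with an adjusted p of 0.454, and the call was also lost without WT ns 4, WT ns 6, WT ns 7 or WT ns 8 (0.97 to 1.11). Aif1, the gene of the microglial antigen IBA1, was not called, at -0.33 in KO and 0.22 in WT. Both values changed sign without 1 library, to 0.06 in KO without KO ns 6 and to -0.27 in WT without WT LPS 7.

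Among the 5 adhesion linkers only Vcl was called, in WT alone. Vcl ran from 9.13 to 56.3 CPM (median 20.5 CPM) in WT ns and from 2.53 to 14.4 CPM (median 10.0 CPM) in WT LPS and fell by 1.62 (SE 0.42, edgeR adjusted p = 0.00406). In KO it ran from 4.70 to 29.5 CPM under ns and from 5.29 to 15.3 CPM under LPS, with a difference of -0.50 (adjusted p = 0.327). As for Gsn, the highest WT ns values, 56.2 and 56.3 CPM, belonged to WT ns 3 and WT ns 8. Without these and the 2 other libraries of over 10000 CPM of neutrophil markers, the WT calls of Vcl, Gsn, Plek and Tmsb10 and the KO calls of Vasp and Lcp1 were lost. The 2 others, WT LPS 7 and KO ns 6, also had over 2% mitochondrial counts, so the 2 properties overlap in them. Neither the 3 genes of myosin II nor the GTPases Cdc42 and Rac1 were called in either genotype, while of the 6 genes of exchange factors Elmo1 was called in both and Dock10, a DOCK-family exchange factor, in WT (-0.52, SE 0.19, adjusted p = 0.0348). Without WT LPS 7 the Dock10 difference was -0.51 (SE 0.20), as large as before, with an adjusted p of 0.0603.

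The 8 genes Actb, Arpc2, Was, Cfl1, Coro1a, Tln1, Rac1 and Vav1 were described in every comparison whatever their result. Between LPS and ns in KO, the differences of those not called were 0.20 for Actb, 0.35 for Arpc2, 0.18 for Was, 0.41 for Coro1a, 0.97 for Tln1, -0.17 for Rac1 and 0.43 for Vav1, with adjusted p from 0.114 to 0.757. In WT the corresponding values were 0.13 for Actb, -0.07 for Was, 0.52 for Coro1a, 0.41 for Tln1, -0.14 for Rac1 and 0.36 for Vav1, with adjusted p from 0.0736 to 0.910. Actb, the main cytoplasmic actin, had 2988 to 3789 CPM in KO ns and 2889 to 4904 CPM in KO LPS, and the groups overlapped widely.

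In 6 libraries many of the actin genes had levels far from those of the others, while 19 of the 43 had median levels within 2-fold. These are the libraries with over 2% of counts from mitochondrial genes (2.69% to 8.55%, against at most 1.81% in the other 26), namely WT ns 5, WT LPS 6, WT LPS 7, KO ns 5, KO ns 6 and KO LPS 5, all of set 2. Tln1, encoding talin, was 53.6 to 220.2 CPM in the 6 and 824 to 1739 CPM in the others. Fmnl1, a leukocyte formin, was 25.8 to 83.9 CPM against 468 to 883 CPM, and Was, the haematopoietic activator of Arp2/3, 13.4 to 62.1 CPM against 128 to 197 CPM. In the opposite direction, Tmsb4x, encoding a monomer-binding thymosin, was 3959 to 15748 CPM in the 6 and 1531 to 2802 CPM in the others. Cdc42 was 1048 to 2667 CPM against 488 to 702 CPM. None of these ranges overlapped, and apart from Was and Tln1 these genes were chosen after their values were seen.

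The ratio of median levels between the 6 and the other 26 libraries was below -1 on the log2 scale for 16 of the 43 genes and above 1 for 8. The 16 had a median GC content of 56.2% in their longest protein-coding transcript, and the 8 a median of 48.6%. Across the 43 genes the log2 ratio had a Pearson correlation of -0.62 and a Spearman correlation of -0.61 with GC content, and of -0.54 and -0.52 with log2 transcript length. Across the 12718 of 15919 genes with such a transcript, the Pearson correlation with GC was -0.64 and the Spearman correlation -0.67. All these points share the same 32 libraries, so the correlations are given as a description. Past a 2-fold difference lay 55.8% of the actin genes and 46.2% of all genes. The part of mitochondrial share, GC content or length in these levels was not tested.

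**Figure D3:**
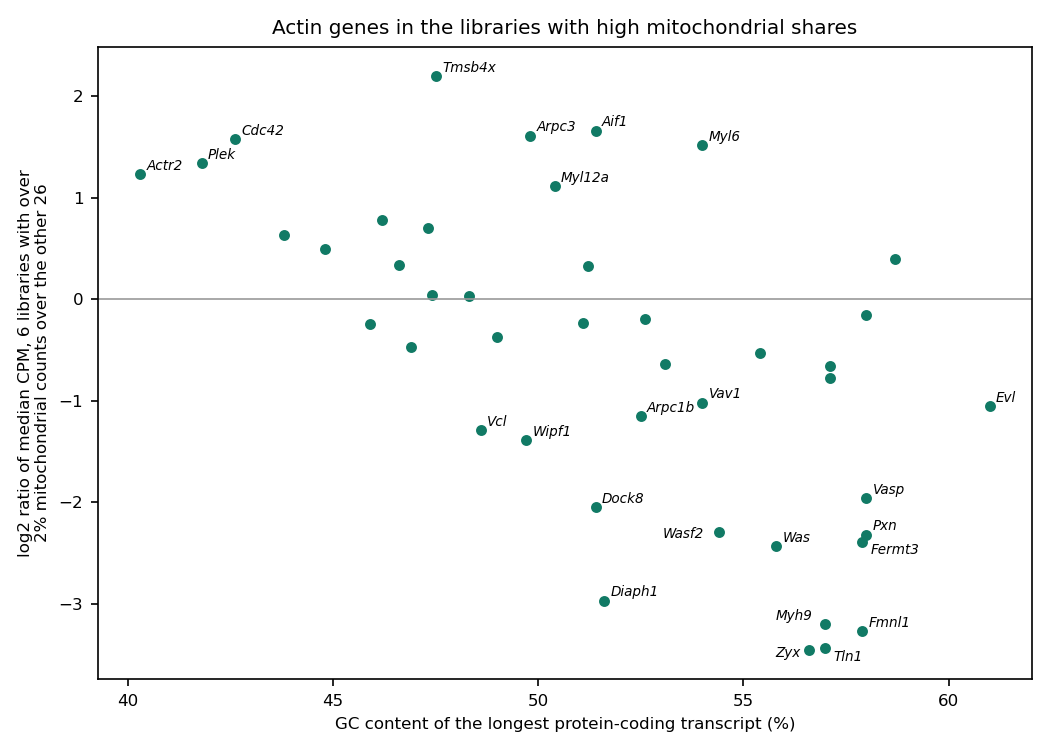
Log2 ratio of median CPM between the 6 libraries with over 2% mitochondrial counts and the other 26 (vertical axis) against GC content of the longest protein-coding transcript (horizontal axis, percent), 1 point per actin gene, with names where the ratio is past 1 in either direction. The ratios run from -3.46 to 2.20 and lie lower at higher GC content.

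Of the 6 libraries, WT LPS 7, KO ns 5, KO ns 6 and KO LPS 5 had entered the tests. Without them 24 actin genes were called between LPS and ns in each genotype, while 54.7% of all genes were called in KO and 54.1% in WT. This setting was chosen after the data were seen. All 10 KO calls and all 11 WT calls were retained, and 21 genes were called in both genotypes, each in the same direction. They make up 87.5% of the calls in each genotype, near the 84.11% of KO calls and 84.95% of WT calls shared over all genes. Higher in both were 12 of them, Arpc1b, Arpc2, Actr3, Diaph1, Vasp, Cfl1, Pfn1, Coro1a, Capg, Fermt3, Tln1 and Vav1. Lower in both were the other 9, Wipf1, Evl, Tmsb10, Pxn, Rac1, Dock2, Dock8, Dock10 and Elmo1. Tln1 was then 0.73 higher in KO (SE 0.06, edgeR adjusted p = 2.04e-09) and 0.65 higher in WT (SE 0.07, adjusted p = 3.68e-08). Coro1a, whose product binds actin in the leukocyte cortex, was 0.55 higher in KO (SE 0.09, adjusted p = 1.52e-05) and 0.29 higher in WT (SE 0.10, adjusted p = 0.0128). Rac1 was lower by 0.22 on the log2 scale in KO and by 0.16 in WT. Actb differed by 0.18 and 0.14 and was called in neither.

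The 4 WT libraries of number 2 were compared with the ranges of the other WT libraries for the 11 genes called in WT. The library labelled WT LPS 1 lay in the ns range for all 11 genes and in the LPS range for 1. The library labelled WT ns 1 lay in the LPS range for 8 and in the ns range for 2. The library labelled WT ns 5 lay in the LPS range for 7 and in the ns range for 1, and that labelled WT LPS 6 in the ns range for 4 and in the LPS range for 5. Elmo1, for example, was 225 and 223 CPM in the pair labelled ns, and 483 and 343 CPM in the pair labelled LPS. Capg was 105.3 and 83.2 CPM in the libraries labelled ns and 49.5 and 45.6 CPM in those labelled LPS. The LPS range included WT LPS 7, which had over 2% mitochondrial counts, as had WT ns 5 and WT LPS 6. Only through WT LPS 7 did that range hold Arpc2, Plek and Vcl of WT LPS 6. The same was true of Actr3, Plek and Capg of WT ns 5 and of Vcl of WT ns 1. These range counts are therefore a description only. With every library entered as labelled, 6 actin genes were called in KO (22.3% of all genes) and 0 in WT, where 0% of all genes were called and 10 of the 43 had an unadjusted p under 0.05 in edgeR. The share of all genes at that unadjusted p is not given here, so the 10 are a description only.

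The genotypes were then compared under each condition of the LPS experiment, without the WT libraries of number 2. Under ns 0 of the 43 genes were called (0.0932% of all genes), with 5 at an unadjusted p under 0.05 in edgeR. DESeq2 called 1 gene under ns, Rac1, at 0.21 (SE 0.05, adjusted p = 0.0393), against 0.311% of all genes. Under LPS 0 were called by edgeR (0.0746% of all genes) and 0 by DESeq2, with 0 and 1 at an unadjusted p under 0.05. The differences of the KO and WT responses to LPS gave 0 calls as well (0% of all genes), and 0 in DESeq2, with 2 genes in each at an unadjusted p under 0.05. Counts at an unadjusted p stand here without the share of all genes and are a description only. The medians over the 43 genes were -0.18 under ns and -0.10 under LPS, beside -0.04 and -0.03 over all genes.

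Rac1, a GTPase that activates the WAVE complex, ran from 353 to 447 CPM (median 396 CPM) in WT ns and from 414 to 508 CPM (median 456 CPM) in KO ns. The groups overlapped in part, and edgeR gave a difference of 0.20 (SE 0.10, adjusted p = 0.543). The differences under ns of the other 7 genes described throughout were -0.05 for Actb, 0.06 for Arpc2, -0.34 for Was, 0.19 for Cfl1, -0.18 for Coro1a, -0.51 for Tln1 and -0.21 for Vav1. Under LPS they were 0.01 for Actb, -0.17 for Arpc2, -0.09 for Was, -0.16 for Cfl1, -0.29 for Coro1a, 0.05 for Tln1, 0.17 for Rac1 and -0.14 for Vav1. KO responses minus WT responses were 0.06 for Actb, -0.24 for Arpc2, 0.25 for Was, -0.35 for Cfl1, -0.11 for Coro1a, 0.56 for Tln1, -0.03 for Rac1 and 0.07 for Vav1. The largest such differences among the 43 were -1.15 for Plek (SE 0.54, edgeR adjusted p = 0.772) and 1.12 for Vcl (SE 0.54, adjusted p = 0.772). Without WT LPS 7 the Plek value was -0.36 (SE 0.38).

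In the sex experiment no actin gene was called for genotype. In males 0 of 43 were called (0.00946% of all genes), in females 0 (0.164%), for the mean of the sexes 0 (0.432%) and for the difference between the sexes 0 (0%). At an unadjusted p under 0.05 in edgeR there were 3, 0, 6 and 0, given without the share of all genes and so as a description only. DESeq2 also called 0 in each. In males 39 of the 43 differences were below 0 with a median of -0.24, and in females 27 with a median of -0.03, beside -0.01 over all genes in each sex. In males the differences of the genes described throughout were -0.24 for Actb, -0.29 for Arpc2, -0.13 for Was, -0.23 for Cfl1, -0.46 for Coro1a, -0.20 for Tln1, 0.01 for Rac1 and -0.05 for Vav1. In females they were -0.02 for Actb, -0.01 for Arpc2, 0.05 for Was, 0.12 for Cfl1, -0.11 for Coro1a, -0.01 for Tln1, 0.07 for Rac1 and 0.01 for Vav1. For the mean of the sexes they ran from -0.29 for Coro1a to 0.04 for Rac1, and the female minus the male difference ran from 0.05 for Rac1 to 0.35 for Cfl1.

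**Figure D4:**
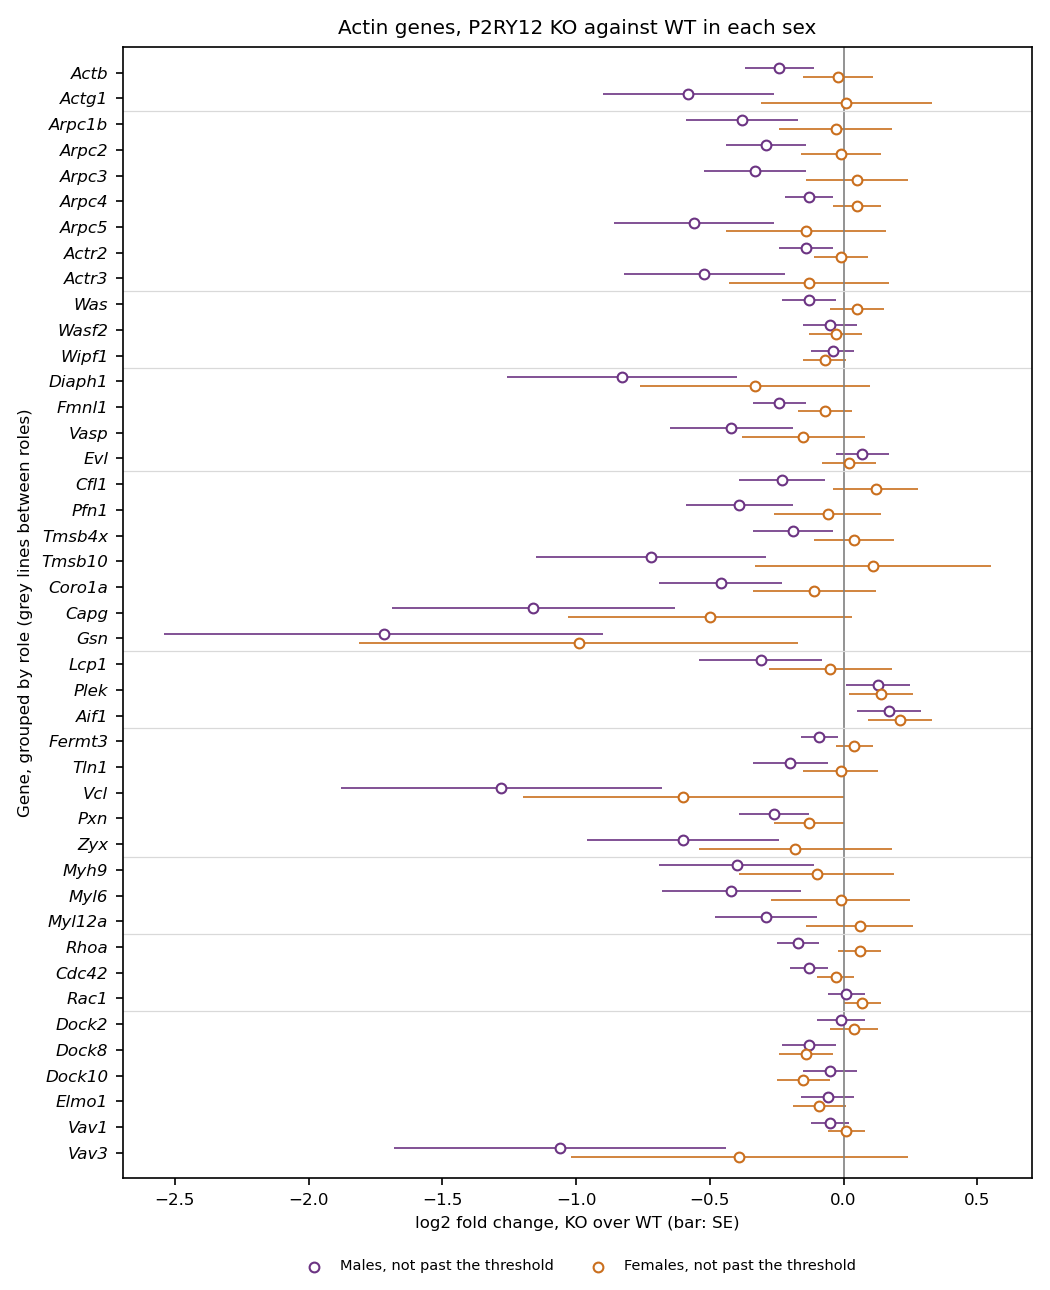
Log2 fold change of KO over WT (horizontal axis, with SE bars) for each of the 43 actin genes (vertical axis, ordered by role) in males (purple) and females (orange). No point passed the threshold, and the male values of Gsn, Vcl, Capg and Vav3 lie below -1.

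The lowest differences belonged to Gsn, Vcl, Capg and Vav3 (chosen after their values were seen), and their levels followed 2 WT animals. Gsn was 16.7, 18.6, 40.9 and 203.0 CPM in the male WT animals and 14.5, 18.9, 19.7, 25.1 and 27.8 CPM in the male KO animals. The 203.0 CPM was in male WT 5, and the other WT males overlapped with the KO males. In females Gsn was 11.1, 14.0, 19.2 and 140.6 CPM in WT, the highest in female WT 2, and 16.7, 16.9, 17.1, 24.1 and 41.1 CPM in KO. Gsn differed by -1.72 in males (SE 0.82, edgeR adjusted p = 0.719) and by -0.99 in females (SE 0.82, adjusted p = 1). Vcl was 28.7, 35.0, 57.8 and 252.4 CPM in male WT and 29.02 to 43.01 CPM in male KO, again with male WT 5 far above the rest. Capg was 16.97, 18.47, 32.42 and 104.2 CPM in male WT and 16.00 to 22.01 CPM in male KO. Vav3, an exchange factor, was 7.48, 9.75, 16.9 and 66.6 CPM in male WT and 8.595 to 17.86 CPM in male KO.

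The summed level of 10 neutrophil markers, all with counts, was 49354 CPM in male WT 5 and 29030 CPM in female WT 2, and 731 to 7743 CPM in the other 16 animals. The 7 monocyte markers summed to 4568 and 2531 CPM in the same 2 animals. Among males the neutrophil sum ran from 1742 to 49354 CPM in WT and from 2073 to 3710 CPM in KO, and among females from 731 to 29030 CPM in WT and from 1584 to 5561 CPM in KO. Without these 2 animals, a setting chosen after the data were seen, the median difference of the 43 genes was -0.04 in males and 0.13 in females. For the mean of the sexes it was 0.06, so that the sign turned in the last 2, and 0 genes were called. Gsn then differed by -0.27 in males and 0.65 in females, Vcl by -0.07 and 0.26, and Capg by -0.24 and 0.28. In the LPS experiment the neutrophil sum was 18182 CPM in WT ns 3, 16805 CPM in WT ns 8, 13484 CPM in WT LPS 7, 10099 CPM in KO ns 6 and at most 7548 CPM elsewhere. Between KO and WT under ns, Gsn differed by -1.27 (SE 0.45, edgeR adjusted p = 0.442), Vcl by -1.05 and Capg by -0.61, and by -0.11, -0.03 and -0.28 without those 4 libraries. Whether RNA of other myeloid cells sets these levels was not tested.

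**Figure D5:**
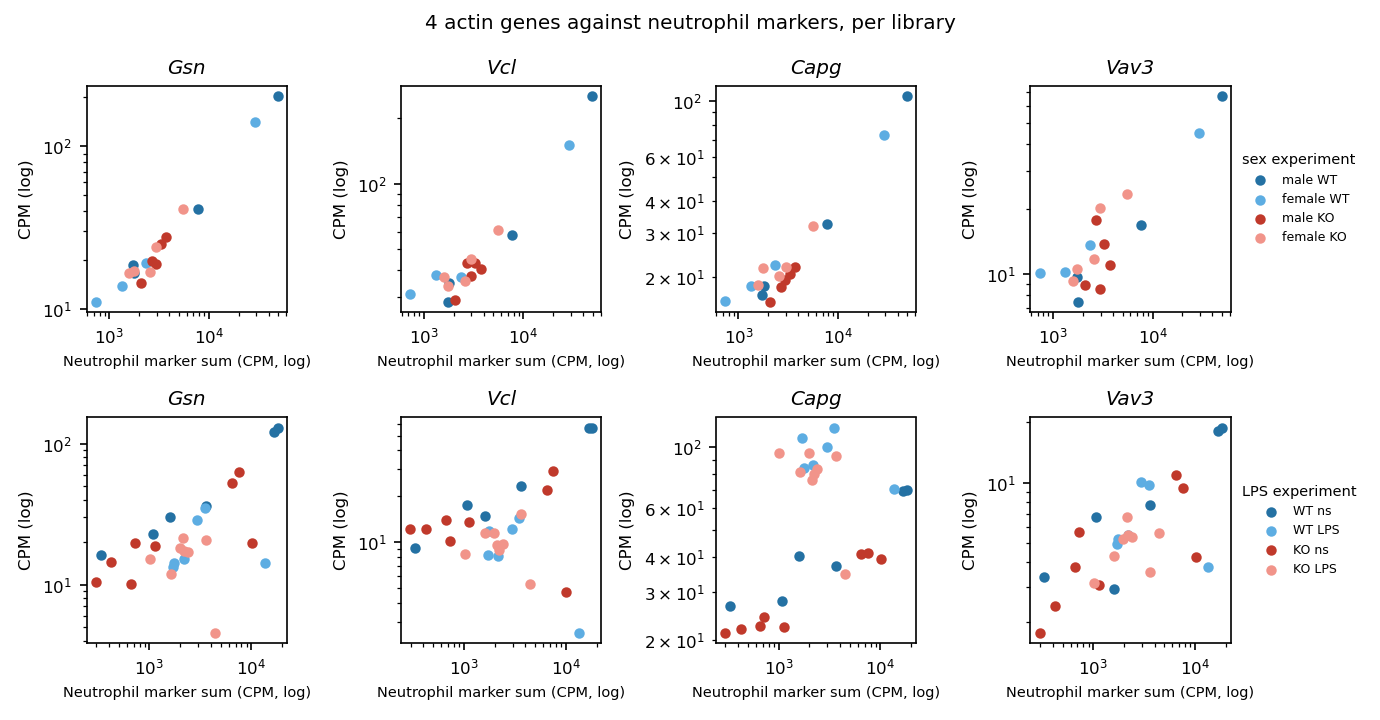
Level in CPM (vertical log axes) of Gsn, Vcl, Capg and Vav3 against the summed CPM of 10 neutrophil markers (horizontal log axes) in each animal of the sex experiment (top) and each library of the LPS experiment outside WT number 2 (bottom), coloured by group. In the top row male WT 5 and female WT 2 lie at the upper right of each panel.

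Beyond the 43 genes, 127 other genes of the actin pathway were read, and the filter on low counts passed all of them among the sex libraries and 120 among the LPS libraries. Of the 120, 19 rose and 10 fell between LPS and ns in KO, and 15 rose and 15 fell in WT, and 0 were called between genotypes in either experiment. The called shares were 24.2% in KO and 25% in WT, below the 28.5% and 30.7% of all genes. The largest called differences in KO were those of Inf2, a formin (4.56, SE 0.70), Marcksl1 (2.51, SE 0.35), Flna, encoding the crosslinker filamin A (2.21, SE 0.45), Tagln2 (1.67, SE 0.18), Tiam1, a Rac exchange factor (-1.41, SE 0.35), and Fmnl2, a formin (1.35, SE 0.22). In WT they were those of Inf2 (3.54, SE 0.77), Marcksl1 (2.85, SE 0.42), Fmnl2 (2.17, SE 0.26), Tln2, encoding a talin (-1.94, SE 0.33), Tiam1 (-1.88, SE 0.41) and Tgfb1i1 (-1.64, SE 0.57). Their adjusted p in edgeR ran from 6.7e-08 to 0.0029 in KO and from 4.62e-07 to 0.0293 in WT. Inf2, Marcksl1, Fmnl2 and Tiam1 are on both lists with the same direction.

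The span of 20 of the 43 genes overlaps that of another gene on GRCm39, and for 9 of them the other gene held at least 10% as many counts in the sex experiment. Actb, at chromosome 5 from 142888870 to 142892509, contains Gm38733 on the opposite strand with 27.03% of its counts, and Fermt3 overlaps Gm54052 with 51.6%. The lengths given in that table are spans from first to last base for all 50565 genes, introns included. Among the genes called between LPS and ns, Evl overlaps Degs2, which held 22.65% as many counts, and Pfn1 overlaps Eno3, which held 26.84%. Elmo1, at chromosome 13 from 20274677 to 20792523, overlaps a gene with 0.899% of its counts, and Cfl1 and Capg overlap none. Actb and Actg1 encode near-identical proteins. Their sequences were not compared here, and how reads that fit both were counted is not given in the sources used here.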

How the data were processed

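Read counts per gene, deposited by the authors as whole numbers in 2 tables, were used as they stand. STAR 2.6.1, featureCounts, Subread, FastQC, DESeq2 and the build GRCm39 are named, without role, in the submitters' processing notes, and the strand setting is not given in the sources used here. Of 57 samples in the labels, 51 columns were used, and 6 repeat libraries without a column of their own were not analysed here. WT LPS 8 and WT LPS 9 differed by little more than sampling noise and were summed.

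Counts were tested with edgeR 4.0.16 in R 4.3.3 (filterByExpr, TMM scaling, robust quasi-likelihood F-test, Benjamini-Hochberg adjustment over all genes tested), with 1 mean per group and, in the LPS experiment, a library set term. The SE is the fold change divided by the root of F. In the sex experiment 31709 genes were tested, with 35.3% as biological coefficient of variation, and in the LPS experiment 16088, with 40.1%. DESeq2 1.42.0 was an alternative, beside other scalings, filters, sample sets, a replicate block and leaving out each library. The code was tested on simulated counts. These had a smaller spread than the data and no libraries apart from the rest, so that test does not measure how well changes are recovered here. In each comparison the genes called are named, together with 8 genes named in every comparison, and other names are said to be chosen after their values were seen. The members, lists and tests were chosen with earlier results of these data known. Protein sequences were not used here.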

Additional observations from a re-analysis of the deposited data

Results flagged for a closer look

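In groups of 4 to 8 samples, 22 actin genes (those called in any comparison and the 8 described throughout) were checked for a highest or lowest sample that stands apart from the rest by Dixon's criterion. This held in 52 of 176 pairs of gene and group, where chance gives about 1 in 20 for independent values. These values are not independent, since the genes share libraries and were in part chosen for their changes, so the count is a description. The values are CPM.

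Male WT 5, the animal with the highest neutrophil markers, was apart for Arpc1b (322), Arpc2 (652.2), Actr3 (875.5), Was (160.8), Diaph1 (225.9), Vasp (407.8), Cfl1 (710.8), Tmsb10 (150.6), Gsn (203), Lcp1 (2262.1), Tln1 (887.5) and Vcl (252.4). Female WT 2, the next in neutrophil markers, was apart for Diaph1 (174.1), Pfn1 (554.1), Tmsb10 (114.3), Capg (72.89), Gsn (140.6) and Vcl (151.1). All 18 of these values were the highest of their group. Among KO animals, male KO 3 was apart for Arpc2 (333.3) and Vasp (160.3), and female KO 4 for Capg (31.9).

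In the LPS experiment, KO LPS 5 was apart for 14 genes. It was highest for Actr3 (873.8), Lcp1 (2855.4), Plek (1591.8) and Dock10 (708.6), and lowest for Arpc1b (169.5), Was (13.43), Diaph1 (11.98), Vasp (53.68), Evl (46.77), Pfn1 (286.3), Coro1a (387.2), Capg (34.83), Tln1 (85.06) and Vav1 (153.7). WT LPS 7 was highest for Arpc2 (867.3), Actr3 (1270.7), Cfl1 (1742.2), Coro1a (1368.0) and Plek (4076.1), and lowest for Arpc1b (309.1), Was (62.08), Diaph1 (40.28), Tln1 (164.4) and Elmo1 (122.3). KO ns 6 was highest for Arpc2 (646.2), Actr3 (632.6), Cfl1 (979.4) and Plek (1677.0) and lowest for Elmo1 (272.9). Dock10 stood apart in KO ns 5 (769.8) and Vasp in WT LPS 4 (372). Of these libraries KO LPS 5, WT LPS 7, KO ns 6 and KO ns 5 are among those with over 2% mitochondrial counts, and the part of that in their values was not tested.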

How the results depend on the processing

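No called actin gene changed sign under any alternative run. Over all results and alternatives, 2230 values kept their direction and their side of the threshold (for counts of genes, stayed within 1.5 times), 102 fell short of the threshold or fell in number and 36 passed it or grew, and 113 of 1746 values of genes that were not called changed sign. In KO between LPS and ns, 6 actin genes were called with every library as labelled, 6 with only the groups compared, 22 in set 1 only, 2 in set 2 only and 24 without the libraries of over 2% mitochondrial counts, in place of 10. In WT the count of 11 became 0 with every library as labelled, 1 in set 2 only and 24 without the mitochondrial libraries. DESeq2 called 1 gene, Rac1, between genotypes under ns, where edgeR called 0. Leaving out each library in turn gave 7 to 15 calls in KO, 9 to 11 in WT and 0 in every other comparison. The shares of all genes called in those runs are not given here, so these counts are a description only. Fewer samples were fitted within each set, and the cause of the other changes was not tested. Whether replicate numbers pair the samples was not tested. Among sex libraries, same-numbered deviations had a mean r of 0.126 over 8 pairs, and other pairs -0.030 over 32. Among LPS libraries these values were 0.045 over 32 pairs and -0.001 over 114. The same-numbered mean was thus the higher in each experiment. With the replicate number as a block, 15 actin genes were called in KO (33.3% of all genes), 13 in WT (31.5%) and 0 in the other comparisons, with every call kept but that of Plek in WT (0.97, adjusted p = 0.0566). Each library held 15.9 M counts or more, and the parts of counting error and of the spread between libraries in these comparisons were not separated.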
